A study of Mus musculus with 6 samples.

Results

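The 10 genes described here encode a cytokine (Tnf), 8 chemokines (Cxcl1, Cxcl2, Cxcl10, Ccl20, Cx3cl1, Cxcl16, Ccl25 and Ccl28) and the adhesion protein Icam1. They were chosen by name, as epithelial genes known to respond to tumor necrosis factor (TNF) or to be produced without it. All 10 were found by Ensembl identifier among the 55414 genes of the count table. The 6 RNA-seq libraries came from Paneth cells, the antimicrobial secretory cells at the base of small intestinal crypts, sorted by FACS from wild-type mice, per the study's methods of the strain C57BL/6J and with a sample for each mouse. Standard chow was fed for 7 weeks in a first group (3 libraries, standard diet) and zinc depleted chow for the same time in the other (3 libraries, zinc depleted). All mice in both groups had received TNF 3 hours before sampling. The series' design text gives 4 replicates per group, whereas the labels and the count table used here hold 3. Ages and the TNF dose were not given in the sources used here, and no library of mice without TNF was used, so induction by TNF itself was not measured.

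TNF binds receptors on epithelial cells and releases NF-kB, a transcription factor that moves to the nucleus and switches on genes for inflammation. Many chemokines, the secreted proteins that direct the migration of leukocytes, are among its targets, as are Icam1, which leukocytes bind through integrins, and the Tnf gene itself. In the small intestine, Ccl25 and Ccl28 are made by the epithelium without infection and recruit lymphocytes and antibody-producing cells, while Cxcl1, Cxcl2, Cxcl10 and Ccl20 are known as chemokines of the inflamed epithelium.

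All 10 genes are annotated as protein coding. On GRCm39 the chemokines of the CXC class are Cxcl1 (ENSMUSG00000029380, chr5:91039094-91040974), Cxcl2 (ENSMUSG00000058427, chr5:91051730-91053797), Cxcl10 (ENSMUSG00000034855, chr5:92494497-92496748) and Cxcl16 (ENSMUSG00000018920, chr11:70344517-70352620). The others are Ccl20 (ENSMUSG00000026166, chr1:83094487-83096888), Ccl25 (ENSMUSG00000023235, chr8:4374661-4540760), Ccl28 (ENSMUSG00000074715, chr13:120085355-120115895) and Cx3cl1 (ENSMUSG00000031778, chr8:95498637-95509055), with Tnf (ENSMUSG00000024401, chr17:35418357-35420983) and Icam1 (ENSMUSG00000037405, chr9:20926672-20940113) as the members that are no chemokines.

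The DNA was examined for letters that match the NF-kB consensus, a motif of 10 bases that allows variation at inner positions. Both strands were searched in the 250 bases before the annotated start of the Ensembl canonical transcript of each gene. A match was found for 5 of the 10 genes, namely Cxcl1, Cxcl2, Cxcl10, Ccl20 and Icam1, against 5.15% of the windows of 21627 protein-coding genes. The 150 bases before the start of 4 of them are shown because they hold these matches close to the start, and none of these 4 windows overlaps an annotated exon. The sequences are from GRCm39, run 5′ to 3′ on the strand of the gene and end at the base before the start. Capitals mark the consensus match.
Cxcl1 (chr5:91038944-91039093, plus strand): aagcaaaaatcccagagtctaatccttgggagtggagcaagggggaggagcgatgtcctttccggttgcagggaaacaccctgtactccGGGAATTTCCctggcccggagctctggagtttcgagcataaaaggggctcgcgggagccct
Cxcl2 (chr5:91051580-91051729, plus strand): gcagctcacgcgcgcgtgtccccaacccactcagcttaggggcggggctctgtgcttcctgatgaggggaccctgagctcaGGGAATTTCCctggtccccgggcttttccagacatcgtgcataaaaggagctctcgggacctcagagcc
Cxcl10 (chr5:92496749-92496898, minus strand): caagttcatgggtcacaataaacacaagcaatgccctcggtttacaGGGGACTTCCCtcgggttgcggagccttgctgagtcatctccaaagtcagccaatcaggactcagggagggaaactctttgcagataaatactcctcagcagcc
Ccl20 (chr1:83094337-83094486, plus strand): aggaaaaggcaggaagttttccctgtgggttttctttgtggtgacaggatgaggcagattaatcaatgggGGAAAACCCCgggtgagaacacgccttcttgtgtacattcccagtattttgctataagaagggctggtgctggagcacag

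Cxcl1 and Cxcl2, neighbours on chromosome 5, hold the identical match GGGAATTTCC, from -61 to -52 and from -69 to -60 relative to the start. Cxcl10 holds matches from -104 to -95 and from -103 to -94, which overlap each other. Ccl20 holds a match on the opposite strand from -80 to -71, and Icam1 one from -243 to -234. No match lies in the windows of Tnf, Cx3cl1, Cxcl16, Ccl25 and Ccl28, which says only that these letters are not in this window. The canonical transcripts of Ccl25 and Cxcl16 start inside the annotated span of the gene. For these genes the DNA before the outermost annotated start was therefore not searched. The window of Ccl25 lies over a UTR exon of Elavl1 on the opposite strand. Other motifs searched were the TATA box (TATAAA on the strand of the gene, in Tnf, 8.06% of all windows), the AP-1 consensus (TGANTCA, in Cxcl10, 6.19%) and the core of the interferon-stimulated response element (in Cxcl10, 3.32%). A match is a description of the letters and was not tested for binding.

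**Figure D1:**
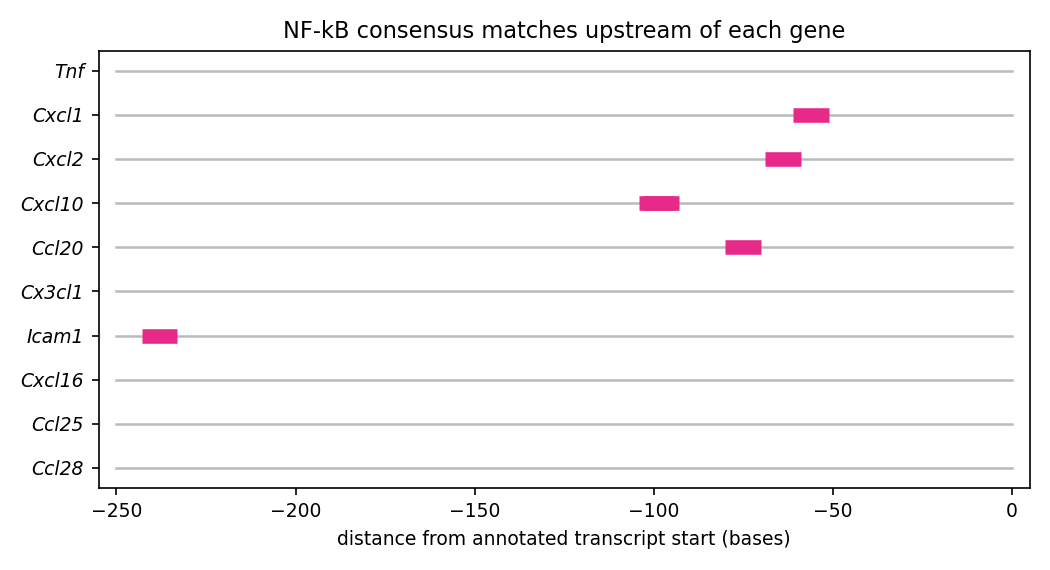
Position of NF-kB consensus matches (bars) in the 250 bases before the annotated start of the canonical transcript of each of the 10 genes. The horizontal axis gives the distance from that start in bases. The matches of Cxcl1, Cxcl2, Cxcl10 and Ccl20 lie between -104 and -52, that of Icam1 begins at -243, and the other 5 genes have none.

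The libraries held 6139397 to 12772373 counts, and the 10 genes together took 0.00829% to 0.0186% of them. A count of 0 allows up to 3 counts, so a gene was called detected above 3 counts. All 7 Paneth cell markers and all 6 epithelial markers examined had at least 3 counts in each library, with 877354 to 2191738 counts of Lyz1. Factors of TMM, the scaling applied before comparing libraries, ranged from 0.46 to 1.73. Values in CPM are counts relative to the library total after this scaling, and values in TPM, used to compare genes with each other, are divided by the length of the Ensembl canonical transcript. In such bulk libraries, fewer cells that express a gene and less RNA per cell cannot be told apart.

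Detection separated the libraries more than the diets. In standard diet replicate 3 and in each zinc depleted library, 10 of the 10 genes were detected. In standard diet replicates 1 and 2 only 7 were, and these libraries stood apart from the other 4 for most of the inducible genes, although their labels give the same TNF treatment. The 3 genes not detected there were Cxcl1, Cxcl2 and Cxcl10. The summed level of the 7 genes regarded as inducible (Tnf, Cxcl1, Cxcl2, Cxcl10, Ccl20, Cx3cl1 and Icam1) was 5.53, 12.8 and 80.1 CPM in standard diet replicates 1, 2 and 3. With zinc depletion it was 84.9, 70.9 and 101 CPM. Standard diet replicate 3 therefore lay within the range of the zinc depleted libraries, and the standard diet group was split. Rn18s-rs5, a ribosomal RNA gene, took 2.56% and 2.91% of the counts in standard diet replicates 1 and 2 and 0.522% to 1.27% elsewhere, and alpha-defensins took 46.3% and 45.5% against 46.6% to 60.5%. After TMM the summed Paneth cell markers were also lowest there, at 290700 and 348500 CPM against 370400 to 1358000 CPM. Most of this range comes from the TMM factors, which can lift the sum above the library total. In raw counts the markers took 3682820 of 7338947 and 3219234 of 6139397 counts there. They took 5395449 of 9992139 counts in zinc depleted replicate 1 and 7974954 of 12772373 in zinc depleted replicate 3, the lowest and highest shares elsewhere. The part of these differences in the split was not tested. Results on the 10 genes that rest on this split are given below also without standard diet replicates 1 and 2, an omission chosen after the values were seen. Fold changes of other genes are given only with all libraries. That fit leaves 1 standard diet library, which is assumed to vary like the zinc depleted ones.

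**Figure D2:**
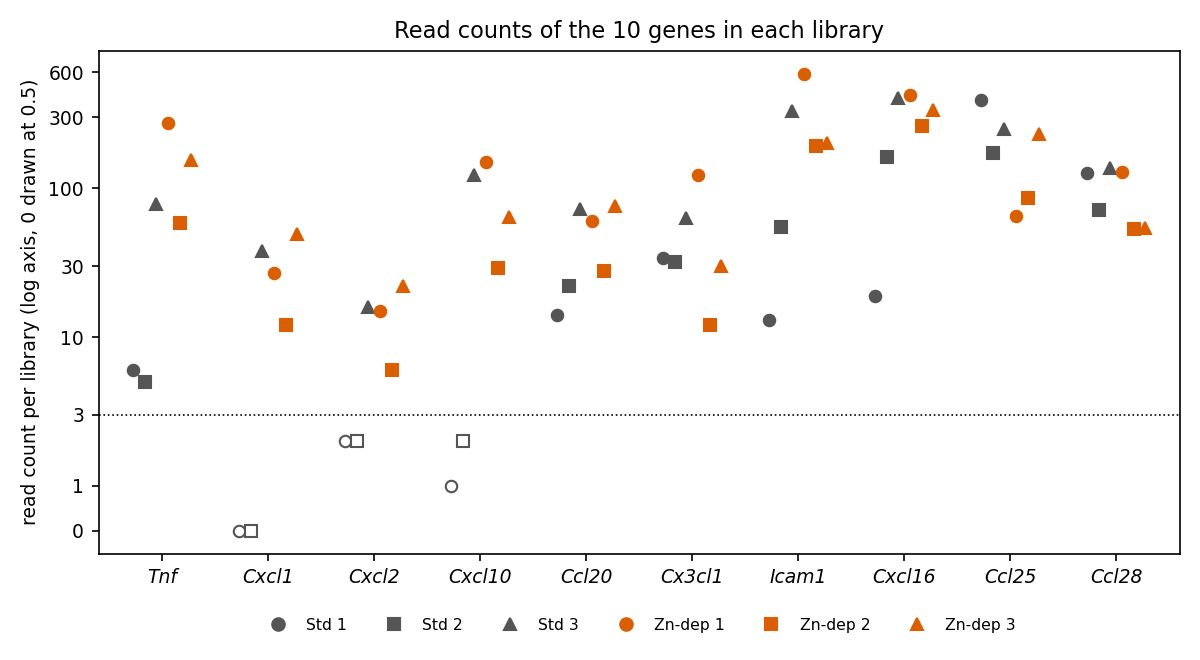
Read counts of the 10 genes in the 3 standard diet (Std) and 3 zinc depleted (Zn-dep) libraries, on a log axis with 0 drawn at 0.5. The dotted line marks 3 counts and open symbols lie at or under it. Cxcl1, Cxcl2 and Cxcl10 lie under the line only in standard diet replicates 1 and 2, while Ccl25 and Ccl28 exceed 50 counts in each library.

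Tnf, the cytokine itself, had 6, 5 and 78 counts on the standard diet and 273, 58 and 154 counts on the depleted diet. This corresponds to 0.474, 0.541 and 8.71 CPM against 18.7, 12.2 and 26.2 CPM. Each zinc depleted library lay above each standard diet library, and Tnf was the only member without overlap between the diets, although relative to total counts its values overlapped.

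Cxcl1 and Cxcl2 attract neutrophils through the receptor CXCR2. Cxcl1 had 0, 0 and 38 counts on the standard diet and 27, 12 and 49 on the depleted diet. Cxcl2 had 2, 2 and 16 counts and 15, 6 and 22 counts. In both genes standard diet replicate 3 lay inside the range of the zinc depleted libraries, and the highest value was in zinc depleted replicate 3. Of the 75-base stretches of the Cxcl2 transcript 96.5% are found in no other gene, the rest being shared with Cxcl3, and all stretches of Cxcl1 are specific.

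Cxcl10, a ligand of CXCR3 on activated T cells, showed the largest spread of the 10 genes, with 1, 2 and 122 counts on the standard diet and 150, 29 and 64 counts on the depleted diet. On the CPM scale this was 0.0789, 0.217 and 13.6 CPM against 10.3, 6.10 and 10.9 CPM, so its highest CPM was in a standard diet library. Ccl20, the ligand of CCR6, was detected in each library, with 14, 22 and 72 counts and 60, 28 and 76 counts. Its TPM, which TMM does not scale, ranged 3.35-fold between the lowest and the highest library. That was the narrowest range among the 10 genes where the ratio could be formed. After TMM Ccl20 ran from 1.1 to 12.9 CPM, lowest in standard diet replicates 1 and 2, a wider range than that of Ccl28 (7.69 to 15.2 CPM).

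Icam1 had 13, 55 and 329 counts on the standard diet and 589, 192 and 201 counts on the depleted diet. In CPM the values were 1.03, 5.95 and 36.7 on the standard diet and 40.4, 40.4 and 34.2 on the depleted diet. After TMM the 4 libraries with full detection thus lay close together, above standard diet replicates 1 and 2. Relative to total counts the same 4 libraries were further apart, at 33.0, 58.95, 25.8 and 15.7 CPM, and standard diet replicates 1 and 2 were still the lowest, at 1.77 and 8.96 CPM.

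Cx3cl1 and Cxcl16 are made as membrane-bound chemokines that can be released by proteases. Cx3cl1 had 2.68, 3.46 and 7.03 CPM on the standard diet and 8.45, 2.52 and 5.11 CPM on the depleted diet, so the diets overlapped fully and standard diet replicates 1 and 2 were not apart. Cxcl16 had 19, 163 and 405 counts and 424, 261 and 334 counts, which is 1.5, 17.7 and 45.2 CPM against 29.1, 54.9 and 56.9 CPM. Only standard diet replicate 1 was far below the rest, by its 19 counts. Exons of Cxcl16 overlap those of Med11 and Zmynd15 on the opposite strand, and 14.3% of its 75-base stretches are in no other transcript. How the counter used strand is not given in the sources used here, so the counts of Cxcl16 are uncertain. Med11 had 51 to 124 counts and Zmynd15 at most 3.

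Ccl25, the ligand of CCR9, had 392, 173 and 249 counts on the standard diet and 65, 86 and 233 counts on the depleted diet. In CPM it was 31.0, 18.7 and 27.8 on the standard diet and 4.46, 18.1 and 39.7 on the depleted diet. The low value of zinc depleted replicate 1 stood out, and the other 5 libraries lay within 18.1 to 39.7 CPM. Ccl28, the ligand of CCR10, had the smallest spread after TMM, with 10.03, 7.69 and 15.2 CPM and 8.86, 11.2 and 9.20 CPM. The opposite-strand gene Elavl1 overlaps Ccl25 but shares few of its stretches, as 98.0% are specific to Ccl25.

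The inducible genes were next compared with Ccl25 and Cxcl16, regarded as constitutive. Over the 6 libraries the standard deviation of log2 CPM was 2.34 for Tnf, 2.26 for Cxcl1, 2.52 for Cxcl10 and 2.09 for Icam1, between percentiles 99.81 and 99.95 of the 9749 genes tested, whose median was 0.60. It was 1.31 for Cxcl2, 1.19 for Ccl20 and 0.69 for Cx3cl1. For Ccl25 it was 1.10 and for Ccl28 0.33, although relative to total counts Ccl20 (0.66) varied less than Ccl28 (0.73). Cxcl16 did not behave like Ccl25 in this respect, with 1.93. Of the 7 inducible genes 4 had a larger spread than both Ccl25 and Cxcl16, and without standard diet replicates 1 and 2 this number was 0. The spread of Icam1 after TMM was 2.45 within the standard diet and 0.14 within the zinc depleted group, although relative to total counts the zinc depleted libraries had 33.5 ± 22.6 CPM (SD, n = 3), whereas that of Ccl25 was 0.38 and 1.57. These are descriptions without a test.

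**Figure D3:**
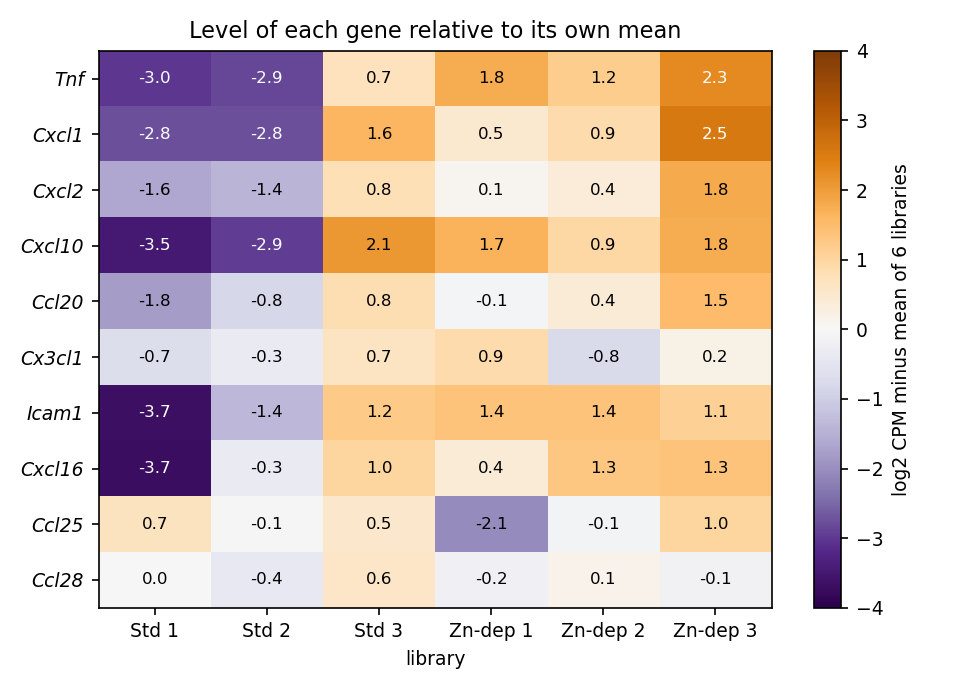
Log2 CPM (TMM, prior count of 2) of each gene minus its mean over the 6 libraries, with columns for standard diet (Std) and zinc depleted (Zn-dep) libraries and the value in each cell. Tnf, Cxcl1, Cxcl2, Cxcl10, Ccl20 and Icam1 are below their mean in standard diet replicates 1 and 2. Cx3cl1 is too, but by less, and Ccl28 is at or slightly below its mean there. Cxcl16 lies far below its mean in standard diet replicate 1 and slightly below it in replicate 2. Ccl25 lies far below its mean in zinc depleted replicate 1.

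By level per length, Ccl25 was the most abundant gene, at 17.2 ± 13 TPM (SD, n = 6), followed by Cxcl16 at 6.11 ± 3.16 TPM (SD, n = 6). In mean log2 level they were followed by Ccl20, Icam1, Tnf, Ccl28, Cxcl10, Cx3cl1, Cxcl1 and Cxcl2, the last with 0.582 ± 0.356 TPM (SD, n = 6). No pair of neighbours in this order differed in the same direction in all 6 libraries, and the smallest adjusted p over the 9 neighbour pairs was 0.703 (exact two-sided sign-flip permutation test of the log2 difference within a library). Ccl25 ranked at the top in 5 of 6 libraries. The exception was zinc depleted replicate 1, where Icam1 and Tnf led with 12.8 and 11.4 TPM and Ccl25 was sixth with 4.94 TPM.

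Differences between genes were taken within a library, where the scaling cancels. Cxcl1, Cxcl2, Cx3cl1 and Ccl28 lay below Ccl25 in 6 of 6 libraries, with log2 differences of -4.59 ± 3.56, -4.72 ± 1.92, -4.0 ± 1.57 and -2.98 ± 1.07 (mean ± SD, n = 6). Cxcl1, Cxcl2 and Cxcl10 lay below Cxcl16 in 6 of 6. These 7 of the 16 comparisons reached the smallest p that 6 libraries allow, 0.0312, and none passed after adjustment over the 16 (adjusted p 0.0714, exact permutation test). Tnf, Cxcl10, Ccl20 and Icam1 were above Ccl25 in 1 library, zinc depleted replicate 1. Ccl20 and Icam1 were nearest to Cxcl16 in the mean, with log2 differences of -0.42 ± 0.99 and -0.59 ± 0.66 (SD, n = 6). The summed TPM of the 7 inducible genes was 0.0867, 0.249 and 1.04 times that of Ccl25 and Cxcl16 in the standard diet libraries and 3.01, 0.982 and 1.06 times in the zinc depleted libraries.

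To compare the diets, the 9749 genes that passed a filter on low counts were tested with edgeR. None of the 10 genes had an adjusted p under 0.05, and the share of all genes called was 0%, with 645 genes at an unadjusted p under 0.05. DESeq2 called 10 genes and limma-voom 0, none of them a member, although DESeq2 gave no adjusted p for Cxcl10. The log2 fold change of zinc depleted against standard diet was above 0 for 8 of the 10 genes, with a median of 1.06, where the median of all genes tested was 0.00. With total counts in place of TMM the median of all genes was -0.66, and 8 of the 10 genes were again above 0, with a median of 0.70. Without standard diet replicates 1 and 2 only 4 of the 10 were above 0, with a median of -0.06. Without standard diet replicate 3 the median was 2.86.

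Tnf had the largest log2 fold change of the 10 genes in edgeR with all libraries, with 3.24 ± 4.73 CPM (SD, n = 3) under standard diet and 19.1 ± 7.02 CPM (SD, n = 3) under zinc depletion. The log2 fold change of Tnf was 2.58, with an SE of 0.90 and an edgeR adjusted p of 0.681. Tnf was 1 of 10 genes at an unadjusted p under 0.05, against 6.62% of all genes, and 1 of 10 without overlap in the higher direction, against 3.51%. In the lower direction the number was 0 of 10 against 6.58%. Without standard diet replicate 3 Tnf passed the threshold, with a log2 fold change of 5.25 (edgeR adjusted p 0.0147), and without standard diet replicates 1 and 2 it was 1.12 (edgeR adjusted p 1.00). Cxcl10 also passed without standard diet replicate 3, with 5.95 (edgeR adjusted p 0.0161), but was -0.58 without standard diet replicates 1 and 2.

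The other inducible genes had wide intervals. Icam1 averaged 14.6 ± 19.3 CPM on the standard and 38.4 ± 3.57 CPM on the depleted diet (SD, n = 3 each), a log2 fold change of 1.40 with a 95% interval from -0.52 to 3.32. Those of Cxcl1, Cxcl2, Cxcl10 and Ccl20 were 1.60, 1.48, 1.00 and 0.99, with edgeR adjusted p between 0.695 and 0.809. These values moved by over 1.5 times with the libraries, and some also with the tool. With DESeq2 they were near those of edgeR, from 1.01 for Cxcl10 to 1.63 for Cxcl1. With limma-voom Icam1 was 2.72, Cxcl1 3.94 and Cxcl10 3.89, while Cxcl2 (1.87) and Ccl20 (1.31) moved less. Without standard diet replicate 3 Icam1 was 3.53, Cxcl2 3.38 and Ccl20 2.18, while no fold is given for Cxcl1, whose other standard diet libraries were at 0. Without standard diet replicates 1 and 2 the log2 fold change of Icam1 was 0.06, and those of Cxcl1, Cxcl2 and Ccl20 were -0.02, 0.14 and -0.09. Of the genes regarded as constitutive, Cxcl16 had 1.13 (95% interval -0.66 to 2.93, and 2.13 with limma-voom) and Ccl25 -0.33 (-1.69 to 1.04, and -0.83 with limma-voom). Ccl28 had -0.17 (-1.03 to 0.68). With total counts Ccl25 was -1.55 and did not overlap between the diets, as was the case in this direction for 1004 of the 9749 genes. Cx3cl1 had 0.32 (-0.88 to 1.53). The upper ends for Icam1, Cxcl1, Cxcl2, Cxcl10, Ccl20 and Cxcl16, at 2.52 or more on the log2 scale, leave room for increases of several fold that could not be detected at this spread.

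**Figure D4:**
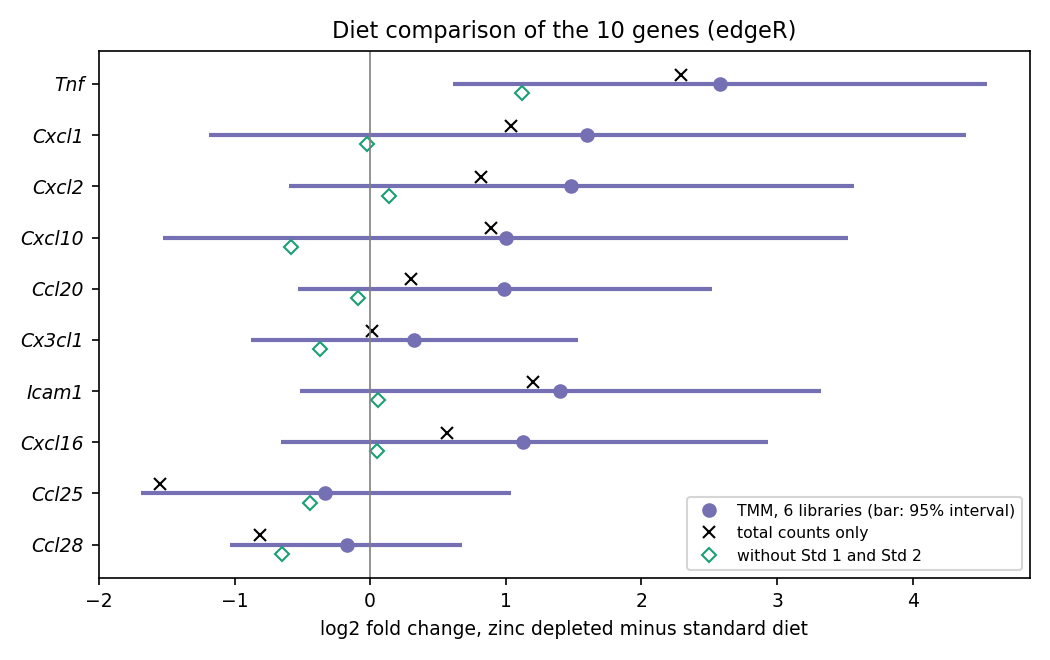
Log2 fold change of zinc depleted minus standard diet for each gene with TMM and all 6 libraries (dots, with 95% intervals), with total counts only (crosses) and without standard diet replicates 1 and 2 (diamonds). The interval of Tnf, 0.61 to 4.55 before any adjustment for the number of genes, is the only one that excludes 0, and the diamonds of Cxcl1, Cxcl2, Ccl20, Icam1 and Cxcl16 lie between -0.09 and 0.14.

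Other genes of the same pathways were examined from lists of related function. Of 9 other CXC chemokines only Cxcl11, which shares the receptor of Cxcl10, was tested, and 6 did not exceed 3 counts in any library. Cxcl11 had 4, 6 and 158 counts on the standard diet and 305, 181 and 206 on the depleted diet, with a log2 fold change of 2.35, an SE of 1.06 and an edgeR adjusted p of 0.681, so standard diet replicates 1 and 2 were again the lowest. Cxcl13, the next in level, had at most 9 counts. Of 14 other CC chemokines 3 were tested, none called. Ccl6, with a mean of 651 TPM, was far above the 10 genes and showed no such split (1154, 1009 and 1589 CPM against 1125, 1373 and 2652 CPM). Ccl9 (log2 fold change 2.26) and Ccl8 (1.51) had edgeR adjusted p of 0.681. The receptors of these ligands were nearly absent: of 11 chemokine and integrin receptor genes 10 did not exceed 3 counts in any library, among them Cxcr2, Cxcr3, Ccr6, Ccr9 and Ccr10 at 0 throughout. The exception was Itgam, with at most 5 counts, and Itgb2 had at most 1.

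Of 18 other cytokines 5 were tested and none was called. Tnfsf10 (log2 fold change -1.36), Tnfsf15 (1.17) and Tnfsf9 (1.2) had edgeR adjusted p of 0.681. Of 8 adhesion ligands 3 were tested, with 0.93 for F11r, 0.58 for Cd47 and -0.37 for Alcam. Of 7 genes for proteases that shed Tnf, Cx3cl1 and Cxcl16 or for proteins that degrade cytokine mRNA, 7 were tested and 0 called. Among these, Zc3h12a, an RNase, had 4.03, 4.98 and 16.2 CPM on the standard diet and 40.1, 16.4 and 22.5 CPM on the depleted diet (log2 fold change 1.66, edgeR adjusted p 0.681). Zfp36, which binds Tnf mRNA, had 10.7, 7.58 and 77.9 CPM and 116, 59.5 and 29.5 CPM, and Zfp36l2 had a log2 fold change of -0.85.

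All 16 genes of TNF receptors and NF-kB were tested and none was called. With all libraries 15 were above 0, with a median log2 fold change of 0.96, where the median of all genes tested was 0.00. These values are not given without standard diet replicates 1 and 2, and how far they rest on the split was not tested. Nfkbia, the inhibitor that NF-kB itself induces, had 19.8, 23.5 and 180 CPM on the standard diet and 213, 175 and 201 CPM on the depleted diet, so after TMM the 4 libraries with full detection of the chemokines lay together. Its raw counts were 251, 217 and 1616 on the standard and 3096, 832 and 1181 on the depleted diet, a wider range among those 4. Tnfaip3, another feedback inhibitor, had 1.42, 3.90 and 18.9 CPM and 30.6, 18.5 and 19.9 CPM. The receptor gene Tnfrsf1a was without this split, with 36.6, 52.7 and 67.3 CPM and 92.3, 41.0 and 38.8 CPM, but the other receptor gene, Tnfrsf1b, showed it, with 3.47, 4.33 and 19.9 CPM and 36.2, 14.3 and 13.1 CPM. Nfkbiz had 4.34, 3.79 and 4.24 CPM and 19.0, 5.26 and 11.4 CPM, a log2 fold change of 1.54 (edgeR adjusted p 0.681).

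Among the 9748 other genes tested, the library profile most like that of Icam1, the inducible gene with the highest mean TPM, was that of Tlr2, with a root mean square difference of 0.17 in centred log2 CPM over 6 libraries, followed by Plaur with 0.36 and Casp4 with 0.39. The median over all genes was 1.99. Tlr2 had 1.03, 6.93 and 36.6 CPM on the standard diet and 39.2, 31.6 and 35.4 CPM on the depleted diet. The profiles most like that of Ccl25 were those of Tacc3, Mtln and Hmgb2, with 0.18, 0.20 and 0.21 against a median of 1.15. Hmgb2 was lowest in zinc depleted replicate 1, as Ccl25 was, at 4.67 CPM against 15.05 CPM or more elsewhere. Within the 10 genes the closest pair was Cxcl2 and Ccl20 (0.29), followed by Cxcl16 and Icam1 (0.59), and the most distant was Cxcl10 and Ccl25 (2.7).

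Markers of other cell types were examined because leukocytes and endothelium also make several of these proteins. The endothelial markers Cdh5, Kdr, Cldn5 and Tie1 were at 0 in each library and Pecam1 had at most 2 counts. Of 13 immune markers, Cd3e and Itgax were at 0 throughout and Ptprc had 5, 33 and 2 counts on the standard diet and 0, 6 and 4 counts on the depleted diet. Leaving aside Lyz2, a close relative of Lyz1, the other 12 immune markers summed to 2.13, 4.98 and 3.13 CPM and to 1.03, 9.89 and 6.13 CPM. On the same scale Tnf was highest in zinc depleted replicate 3, which had the second highest of these sums. Relative to total counts Tnf was highest in zinc depleted replicate 1, at 27.3 CPM, and that library had the lowest sum. After TMM zinc depleted replicate 2, with the highest sum, had the lowest Tnf of the depleted diet, at 12.2 CPM. In raw counts these 12 markers took 47 of 7430027 counts there and 46 of 6139397 in standard diet replicate 2. The order of the sums thus depended on the scaling. Lyz2 had 258, 247 and 955 counts and 353, 410 and 715 counts. Of 6 stromal markers the sum was 1.58 to 12.6 CPM. Tuft cell markers were uneven, at 102, 503 and 30.8 CPM on the standard diet and 133, 112 and 75.6 CPM on the depleted diet. After TMM enterocyte markers were highest in standard diet replicate 2, at 152 CPM against 28.3 to 101 CPM elsewhere. In raw counts they had 1230, 1404 and 510 on the standard diet and 412, 269 and 593 on the depleted diet. Standard diet replicates 1 and 2 thus held the most, although their library totals were the smallest. Stem cell markers were highest in standard diet replicate 1, at 2093 CPM against 390 to 1307 CPM. After TMM goblet markers ranged from 4778 to 10500 CPM, with the lowest sums in standard diet replicates 1 and 2. This order depended on TMM. In raw counts goblet markers took 62665 of 7338947 and 44142 of 6139397 counts in these libraries. They took 42942 of 7430027 counts in zinc depleted replicate 2 and 61665 of 12772373 in zinc depleted replicate 3, the lowest shares. Spink4 had the most counts among goblet markers, and single goblet markers differed. Tff3 had the fewest raw counts in standard diet replicates 1 and 2, which also had the smallest library totals. Muc2, Clca1 and Fcgbp had more counts there than in standard diet replicate 3 and zinc depleted replicates 2 and 3. Muc2 had 10607, 7569 and 3164 counts on the standard diet and 45283, 1773 and 1664 on the depleted diet. After TMM enteroendocrine markers ranged from 19.7 to 77.3 CPM and proliferation markers from 32.3 to 90.3 CPM, both lowest in zinc depleted replicate 1. In raw counts enteroendocrine markers had 527, 608 and 431 on the standard diet and 287, 240 and 454 on the depleted diet. Proliferation markers had 1144, 525 and 598 counts and 470, 232 and 469 counts. Relative to library totals both lists were highest in standard diet replicates 1 and 2. The part of these differences in the values of the 10 genes was not tested.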

How the data were processed

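RNA was measured by single-end sequencing on an Element AVITI instrument. The authors deposited raw read counts per Ensembl gene, 1 column per library. The submitters' processing notes name FastQC, Trimmomatic 0.39, STAR 2.7.10a, DESeq2 and the build mm39. The counting program and its use of strand and of reads with several matches were not given in the sources used here.

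Symbols, positions and lengths were taken from GENCODE M39 on GRCm39, which held 54749 of the 55414 identifiers. The diets were compared with the two-sided quasi-likelihood test of edgeR 4.0.16 in R 4.3.3 (TMM, filterByExpr, 9749 genes left, Benjamini-Hochberg adjustment over all genes, threshold 0.05), which was also tested on simulated data. Levels of genes within a library used log2 of the count plus 0.5 per kilobase and exact sign-flip permutation tests over 6 libraries. The labels do not tie libraries to litters, cages or sort days, so p-values cover only the spread between these libraries. Pairs of libraries of a group differed by more than sampling noise, with a chi-square per degree of freedom of at least 16.5. Floors and counting limits cover counting error only.

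Named were the 10 genes and, of each pathway list, genes called or else those with the smallest unadjusted p (2) and the highest TPM (2), and the 3 genes most like Icam1 and Ccl25. Alcam, Elavl1, Med11, Zmynd15, Tnfrsf1b, receptor genes and single markers were added after values were seen. The genes and lists were chosen with earlier results of these data known. Alternatives were DESeq2 1.42.0, limma-voom (limma 3.58.1), other scalings, no filter, a replicate block, other lengths and a pseudocount of 1, and the omission of libraries.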

Additional observations from a re-analysis of the deposited data

How the results depend on the processing

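The direction and call of the single genes were the same in 130 of 140 values, from 10 genes in each of 14 other settings. The size of the fold change was not part of this count. That of Icam1 ran from 0.06 to 3.53 on the log2 scale over these settings. Omission of the low count filter gave 76 calls in all, of which 1 was a member, Tnf (edgeR adjusted p 0.000342, over its alternatives 0.000342 to 1.00), and 2 were genes of the pathway lists, Cxcl11 and Ccl9. DESeq2 gave 10 calls. Leaving out 1 library at a time gave 0 to 28 calls in all, 0 to 2 among the members (Tnf and Cxcl10) and 0 to 2 in the pathway lists (Cxcl11 and Nfkbia), each maximum without standard diet replicate 3. With 1 library left out, Ccl28 ranged from -0.37 to 0.18, Ccl25 from -1.2 to 0.18 and Cx3cl1 from -0.17 to 0.89, changing sign without standard diet replicate 3 (Ccl28) or zinc depleted replicate 1 (Ccl25, Cx3cl1). Without standard diet replicates 1 and 2 together, a setting added after the data were seen, Cxcl1 was -0.02, Cxcl10 -0.58, Ccl20 -0.09 and Cx3cl1 -0.37, no gene was called, and 0 inducible genes had a larger spread than Ccl25 and Cxcl16. The number of the 16 comparisons with Ccl25 and Cxcl16 that went 1 way in each library ranged from 7 to 13 with 1 library left out, the highest without zinc depleted replicate 1, against 7 with all libraries, 5 with the longest transcript as length and 8 without division by length. Neighbours in the order that did so numbered 0 with all libraries, 0 to 1 with 1 library left out, 2 without division by length and 5 without standard diet replicates 1 and 2. The causes were not tested. The replicate block gave 0 calls with 962 genes at an unadjusted p under 0.05, 7 of them members, with log2 fold changes of 3.55 for Tnf, 3.01 for Cxcl1 and for Cxcl10 and 2.57 for Icam1. Same-numbered libraries of the diets correlated at 0.15, -0.06 and 0.25 in their deviations from the group means, so the numbers were not taken as pairs. Counts of 0 to 2 for Cxcl1, Cxcl2 and Cxcl10 in standard diet replicates 1 and 2 limit any fold against these libraries.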
